A study of Mus musculus with 13 samples.

Results

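Respiratory complex I was examined in myotubes of C2C12, a mouse muscle precursor line whose cells fuse into multinucleated fibres on differentiation, after exposure to palmitoylethanolamide (PEA), an endogenous fatty acid amide. The genes were chosen by symbol, taking every protein-coding gene beginning Ndufa, Ndufb, Ndufc, Ndufs, Ndufv or Ndufaf together with mt-Nd1 to mt-Nd6 and mt-Nd4l, with a mean normalised count of at least 10. Of 16382 genes in the deposited table, 52 met this rule, namely 36 nuclear-encoded subunits, 8 assembly factors (Ndufaf1 to Ndufaf8), 7 subunits encoded in mitochondrial DNA, and Ndufa4, which carries a complex I name but is now counted as a subunit of complex IV. The vehicle group (CON) comprised 6 libraries of myotubes given DMSO and the PEA group 6 libraries of myotubes given 10 μM PEA, in both cases on day 8 of differentiation and for 24 h. Both groups were the same immortalised line kept in culture, so the measurements describe cells without nerve, load or circulation. These 6 came from duplicate wells, which are technical replicates, in 3 repeats of the experiment, so each group holds 3 independent experiments. Which libraries share a repeat is not given in the sources used here, so libraries were treated as separate samples. Values given with n = 6 and all p-values therefore measure the spread between libraries, which is partly technical, and p-values can be too small for differences between experiments.

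Complex I (NADH:ubiquinone oxidoreductase) is the largest enzyme of the respiratory chain and lies in the inner mitochondrial membrane. Its matrix arm oxidises NADH and passes the electrons along a chain of iron-sulfur clusters to ubiquinone, while its membrane arm pumps protons. The catalytic core is built from products of nuclear and mitochondrial genes, the remaining nuclear-encoded subunits are called accessory, and assembly factors help to build the enzyme without remaining in it. Skeletal muscle relies on the complex for oxidative production of ATP.

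At the edge of the rule, Ndufa4l2, a relative of Ndufa4 known as a target of hypoxia signalling, was left out with 2.63 ± 1.83 normalised counts in CON and 5.69 ± 3.40 in PEA (SD, n = 6), below the filter of the test. The lowest gene kept was Ndufaf6, with 108 ± 11 in CON and 106 ± 15.4 in PEA. Ndufb1 and Ndufb11b, whose symbols fit the rule, had no entry in the deposited table under the gene identifiers used here. All 52 genes passed the filter on low counts, and the lowest estimated count of a gene in any library ran from 67 for Ndufaf6 to 20399 for mt-Nd1.

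Libraries held 12354845 to 50397444 estimated counts. All 15 myotube markers listed were measured, among them the skeletal actin Acta1 (56797 ± 7515 normalised counts in CON) and the differentiation factor Myog (12261 ± 1901). Of all genes tested, 4.74% were called lower and 6.31% higher by edgeR. Dividing cell markers were higher with PEA in 8 of 10 genes by edgeR, with summed levels of 7912 to 10873 in CON and 11641 to 14158 in PEA, and none of the 10 was at 0 in any library. Of the myotube markers 4 of 15 were lower, with summed levels of 111940.5 to 175125 in CON and 113706 to 135623 in PEA. Of 7 unfused myoblast markers tested, edgeR called 1 lower and DESeq2 2 lower and 1 higher (8010.1 to 10854 summed in CON, 7852 to 9327 in PEA). Of 5 fibroblast markers tested, edgeR called 1 higher and DESeq2 none (60849 to 79193 summed in CON, 59968 to 70456 in PEA), with the fibroblast surface marker Thy1 near 0. With so few genes these last counts do not set either list apart from all genes. Macrophage markers summed to 64.6 to 139.5 in CON and 79.6 to 127 in PEA, with Ptprc at a mean of 0.319 and 0.843. Endothelial markers summed to 8.23 to 28.5 and 12.6 to 26.5, with Cdh5 at 1.03 and 3.09, and none of them passed the filter. The part of these cell mixtures in the results on complex I was not tested, and in bulk RNA fewer cells of a type cannot be told apart from less RNA per cell.

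The nuclear-encoded subunits showed small negative fold changes with PEA. By edgeR, 9 of 36 were significantly lower at an adjusted p below 0.05 (25.0%) and 0 were higher, against 4.74% lower and 6.31% higher among all 13142 genes tested. All 36 had a log2 fold change below 0, from -0.25 for Ndufv2 to -0.04 for Ndufa13, with a median of -0.14 against 0.01 for all genes tested. The groups did not overlap, with every PEA library below every CON library, for 3 of the 36 (Ndufb9, Ndufb10 and Ndufa8), where 1.81% of all genes tested did so, and no subunit lay apart in the other direction, where 2.53% did. DESeq2 called 14 of the 36 lower, and 7.03% of all genes it tested. The edgeR count was 3 without PEA replicate 5, 4 without CON replicate 3 or 6 or PEA replicate 2 or 6, and 5 without CON replicate 5. The share of all genes called lower was also smaller in those fits, at 2.22% without PEA replicate 5, 2.16% without PEA replicate 6, 2.48% without CON replicate 6, 2.59% without PEA replicate 2, 3.06% without CON replicate 5 and 3.75% without CON replicate 3.

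**Figure D1:**
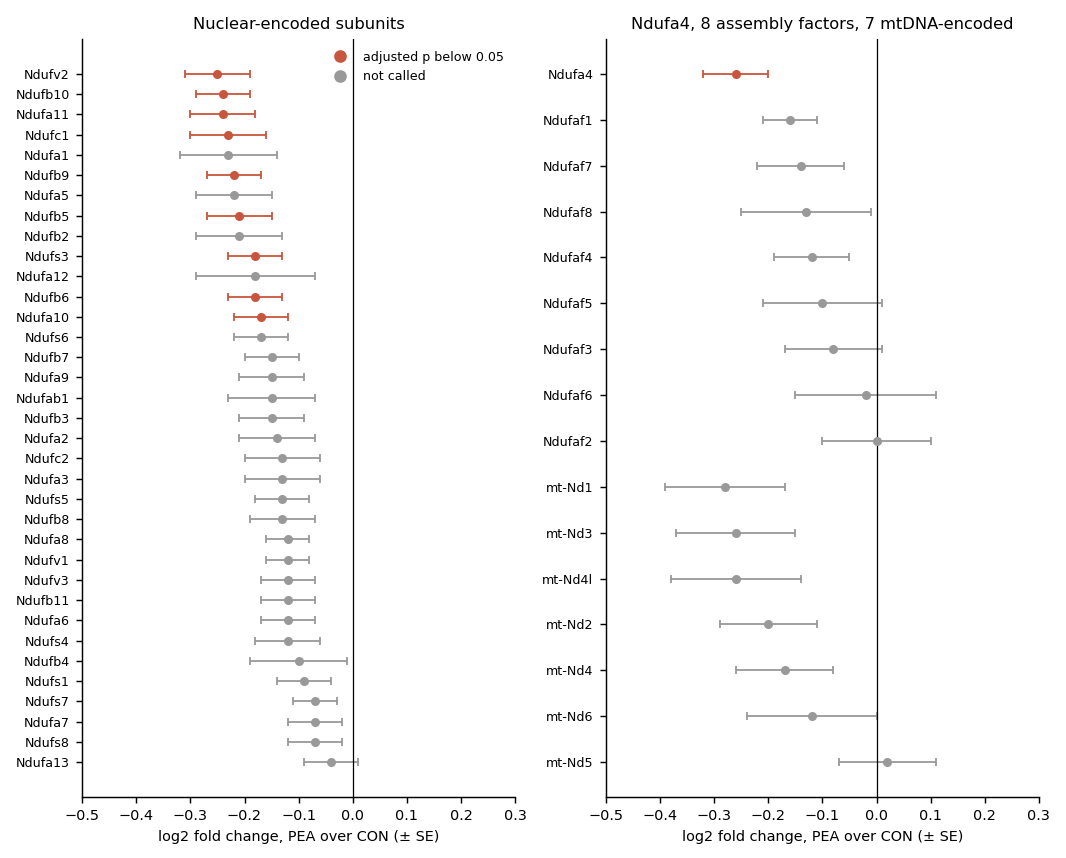
Log2 fold change (PEA over CON) with its standard error from edgeR for the complex I genes, nuclear subunits on the left (1 is not shown) and Ndufa4, the assembly factors and the mtDNA-encoded subunits on the right; red marks an adjusted p below 0.05. The nuclear subunits shown lie left of 0, between -0.25 and -0.04, and the 9 called subunits and Ndufa4 lie between -0.26 and -0.17.

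Ndufb9 and Ndufb10, accessory subunits of the distal membrane arm, had the smallest p-values of the class. For Ndufb9 (chr15:58805594-58814819, plus strand, GRCm39) normalised counts were 3825, 4037 and 4439 in CON and 3299, 3480 and 3717 in PEA (lowest, median, highest). The highest PEA library was therefore below the lowest CON library, and the log2 fold change was -0.22 (SE 0.05, edgeR adjusted p = 0.0085). For Ndufb10 (chr17:24941032-24943453, minus strand) the values were 3196, 3539 and 3812 in CON and 2744, 2902 and 3177 in PEA (lowest, median, highest). These groups were also separate, though narrowly, and the log2 fold change was -0.24 (SE 0.05, edgeR adjusted p = 0.00881).

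Ndufv2, a core subunit of the NADH-oxidising tip of the matrix arm that carries an iron-sulfur cluster, was the most reduced nuclear subunit. Its normalised counts (chr17:66385633-66408634, minus strand) were 2579, 2655 and 3150.1 in CON and 2187, 2267 and 2633 in PEA (lowest, median, highest). Only PEA replicate 1 reached into the CON range, and the log2 fold change was -0.25 (SE 0.06, edgeR adjusted p = 0.0169). Its partner in the tip, Ndufv1, which binds NADH and the flavin, had a log2 fold change of -0.12 with an adjusted p of 0.0783 by edgeR.

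Ndufa4 was reduced as well. This subunit is bound to cytochrome c oxidase (complex IV), and its normalised counts (chr6:11897630-11907496, minus strand) were 3879, 4491 and 4925 in CON and 3353, 3649.6 and 4137 in PEA (lowest, median, highest). The ranges overlapped, with PEA replicates 1 and 3 above the lowest CON library, and the log2 fold change was -0.26 (SE 0.06, edgeR adjusted p = 0.0149). Ndufb9, Ndufb10, Ndufv2 and Ndufa4 kept an adjusted p below 0.05 whichever of the 12 libraries was omitted, with adjusted p-values up to 0.0276, 0.0279, 0.0479 and 0.0413. With offsets for transcript length and GC content, described further on, Ndufb10 and Ndufa4 were no longer called (log2 fold changes of -0.14 and -0.12).

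**Figure D2:**
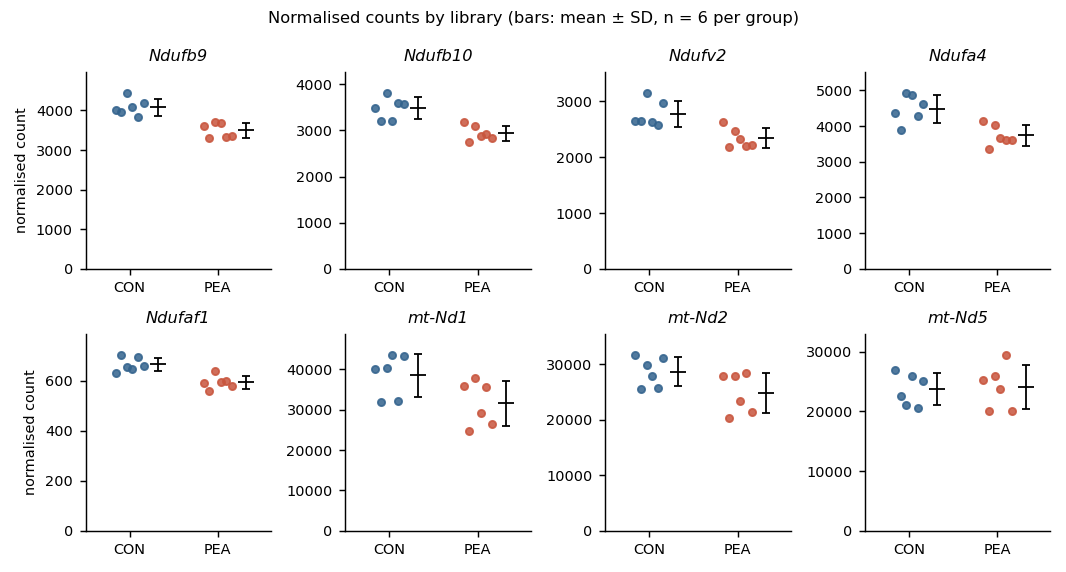
Normalised count (linear axis from 0) in each of the 6 CON and 6 PEA libraries for 8 genes, with the group mean and SD as bars. Ndufb9 and Ndufb10 show no overlap between the groups, Ndufv2, Ndufa4 and Ndufaf1 overlap at the edge of the range, and mt-Nd1, mt-Nd2 and mt-Nd5 overlap widely.

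The other 6 called subunits had PEA means that differed from the CON means by -15.3% to -11.3%. Ndufa11, an accessory subunit embedded in the membrane arm, went from 1591 ± 114 to 1348 ± 111 normalised counts (edgeR adjusted p = 0.0213). Ndufb5 and Ndufb6, both of the distal membrane arm, had log2 fold changes of -0.21 and -0.18 (adjusted p = 0.0362 and 0.0425). Ndufc1, a small membrane arm subunit, had a log2 fold change of -0.23 (adjusted p = 0.042). Ndufa10, which is related to nucleoside kinases, stood at -0.17 (adjusted p = 0.0436), and Ndufs3, a core subunit of the matrix arm, at -0.18 (adjusted p = 0.0444). Their adjusted p-values lost the threshold when single libraries were left out. Ndufa11 did so in 2 of 12 such fits (up to 0.0576) and the other 5 in 7 to 9 of 12 (up to 0.104). With the length and GC offsets, Ndufa11 and Ndufa10 stayed called by edgeR. Ndufb5, Ndufc1 and Ndufs3 did not (adjusted p = 0.0812, 0.0948 and 0.0862), and Ndufb6 stood at -0.06 (adjusted p = 0.408).

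At the other end of the class, Ndufa13, also known as GRIM-19, had 1556 ± 127 in CON and 1509 ± 57.9 in PEA, a difference of -0.04 on the log2 scale (adjusted p = 0.663). Ndufs7 and Ndufs8, core subunits that carry the clusters nearest to ubiquinone, both stood at -0.07 (adjusted p = 0.318 and 0.455). Some subunits that were not called had fold changes as low as called ones with a wider spread, among them Ndufa1 (-0.23, SE 0.09, adjusted p = 0.092) and Ndufa5 (-0.22, SE 0.07, adjusted p = 0.0551).

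By position in the enzyme, 2 of 16 matrix arm subunits, 3 of 9 proximal membrane arm subunits and 4 of 10 distal membrane arm subunits were called lower, against 4.74% of all genes tested. Median log2 fold changes were -0.12, -0.13 and -0.16 in the same order, and Ndufab1, the acyl carrier protein found in both arms, stood at -0.15. Among core subunits encoded in the nucleus 2 of 7 were called, with a median of -0.09, and among accessory subunits 7 of 29, with a median of -0.15. With offsets for transcript length and GC content, described further on, the matrix, proximal and distal arms had 2, 2 and 1 genes called lower. Their medians were then -0.11, -0.06 and -0.11, and 5.46% of all genes were called lower. Differences between these groups of subunits were not tested.

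Library by library, the nuclear subunits were also summarised together. The mean log2 deviation of the 36 genes from their 12-library means lay between 0.013 (CON replicate 1) and 0.142 (CON replicate 3) in CON, and between -0.134 (PEA replicate 2) and 0.015 (PEA replicate 1) in PEA. The group ranges thus met only at PEA replicate 1 and CON replicate 1, the deepest library. In PEA replicate 2, the only library with a top-up sequencing run, all 36 subunits were below their CON mean and 27 were below every CON library. In PEA replicate 1, the least different, 30 were below the CON mean and 7 below every CON library. CON replicate 1, measured against the other CON libraries, had 30 below their mean and 15 below all of them, the most in CON. As a share of all estimated counts, the 36 genes took 0.344% to 0.373% in CON and 0.319% to 0.343% in PEA, ranges that did not overlap.

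**Figure D3:**
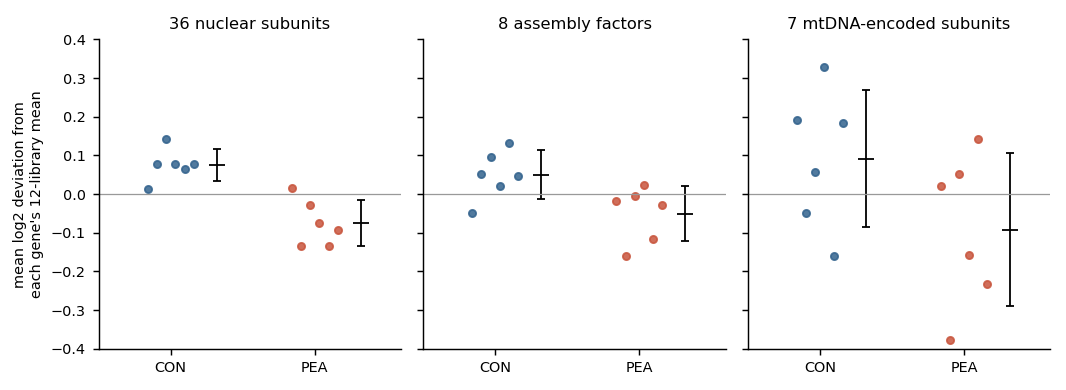
Mean log2 deviation of each library from the genes' 12-library means for the nuclear subunits, the assembly factors and the mtDNA-encoded subunits, with the group mean and SD as bars (n = 6 per group). The nuclear subunits lie at 0.0753 ± 0.0411 in CON and -0.0752 ± 0.059 in PEA, whereas the mtDNA-encoded subunits spread from -0.159 to 0.329 in CON and from -0.377 to 0.142 in PEA.

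Of the 8 assembly factors, 0 were called in either direction by edgeR or DESeq2. With 4.74% of all genes tested called lower by edgeR and 6.31% higher, a count of 0 among so few genes does not set them apart. Their median log2 fold change was -0.11, and none stood apart without overlap. Ndufaf1, which takes part in building the membrane arm, was the closest to the threshold. Its normalised counts (chr2:119482683-119493359, minus strand) were 632, 655 and 702 in CON and 559, 592 and 638 in PEA (lowest, median, highest). Only PEA replicate 3 reached above the lowest CON library, and the log2 fold change was -0.16 (SE 0.05, edgeR unadjusted p = 0.00685, adjusted p = 0.0563). Of the 8 assembly factors, 1 had an unadjusted p below 0.05.

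Ndufaf7, a methyltransferase of early assembly, had 585 ± 55.1 normalised counts in CON and 528 ± 59.3 in PEA, a difference of -0.14 on the log2 scale (edgeR adjusted p = 0.258). Ndufaf4, a partner of Ndufaf3 in early assembly, had 659 ± 55.5 and 604 ± 61.6 (-0.12, adjusted p = 0.294). Ndufaf2, a paralogue of Ndufa12 present in late intermediates, was level at 336 ± 29.2 and 334 ± 49.3 (adjusted p = 0.993), and Ndufaf6 was close to it (log2 fold change -0.02, adjusted p = 0.924). Ndufaf3, Ndufaf5 and Ndufaf8 lay between, with log2 fold changes of -0.08, -0.10 and -0.13. Of 14 further assembly factors named outside the Ndufaf series, 0 were called by edgeR or DESeq2 (1 at an unadjusted p below 0.05) and the median log2 fold change was -0.06. The nearest of these were Dmac1 (-0.16, adjusted p = 0.178) and Timmdc1 (-0.12, adjusted p = 0.206).

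The subunits encoded in mitochondrial DNA had a wider spread between libraries than the nuclear ones, and 0 of 7 were called by edgeR or DESeq2, which for so few genes does not set them apart from all genes tested (4.74% called lower by edgeR, 7.03% by DESeq2). These form the proton-pumping core of the membrane arm. Their median log2 fold change was -0.20, 6 of the 7 were below 0, and 3 had an unadjusted p below 0.05 by edgeR. With offsets for transcript length and GC content the median was -0.03. The median coefficient of variation between libraries of a group was 12.2% (CON) and 15.8% (PEA) for these 7 genes, compared with 6.84% and 6.27% for the nuclear subunits.

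mt-Nd1, which forms the base of the ubiquinone channel, had 31838, 40200 and 43574 normalised counts in CON and 24709, 32455 and 37974 in PEA (lowest, median, highest). CON replicates 2 and 5 lay among the PEA values, PEA replicates 2, 4 and 6 lay below all CON values, and the log2 fold change was -0.28 (SE 0.11, edgeR adjusted p = 0.101). Leaving out CON replicate 2 brought it to an adjusted p of 0.0419, the only fit of 12 in which it passed. mt-Nd2 had 25515, 28847 and 31624 in CON and 20354, 25545 and 28296 in PEA, a log2 fold change of -0.20 (SE 0.09, adjusted p = 0.134).

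mt-Nd3, whose loop lies at the junction of the arms, had 1525 ± 186 normalised counts in CON and 1275 ± 246 in PEA, a difference of -0.26 on the log2 scale (edgeR adjusted p = 0.134). mt-Nd4l, the smallest of the 7, had 985 ± 241 and 824 ± 84.3 (-0.26, adjusted p = 0.185). mt-Nd4 had 33043 ± 3535 and 29399.8 ± 4640.2 (-0.17, adjusted p = 0.271). The ranges of CON and PEA overlapped for all 3.

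mt-Nd5, the outermost pump of the arm, had 20503, 23876 and 26940.5 normalised counts in CON and 20044, 24473 and 29441 in PEA, and its log2 fold change was 0.02 (SE 0.09, edgeR adjusted p = 0.899). mt-Nd6, the only member transcribed from the light strand, had 7088, 8403 and 12042 in CON and 6114, 8489 and 9654 in PEA (-0.12, SE 0.12, adjusted p = 0.576). Neither differed beyond the spread between libraries.

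Some of the mitochondrial genes share bases, which limits how far reads can be assigned to them. Without strand in the counting, which the sources used here do not state, mt-Nd6 counts could also hold RNA of the opposite strand. mt-Nd4l ends inside mt-Nd4 on the same strand, with 7 bases in common (chrM:10167-10173, GRCm39). mt-Nd5 and mt-Nd6 overlap at their ends by 14 bases on opposite strands (chrM:13552-13565). Both stretches are shown with 10 flanking bases on the heavy-strand gene's sense, and the capitals mark the shared bases.
mt-Nd4l and mt-Nd4, chrM:10157-10183, plus strand: acctactacaATGCTAAaaattattct
mt-Nd5 and mt-Nd6, chrM:13542-13575, plus strand: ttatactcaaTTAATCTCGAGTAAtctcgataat

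The ratio of summed counts of the 7 mtDNA-encoded subunits to those of the 36 nuclear subunits ran from 1.66 to 2.18 in CON, around a median of 1.98, and from 1.6 to 2.30 in PEA, around 1.91. These ranges overlapped almost completely, and the means were 1.95 ± 0.217 and 1.92 ± 0.281. For PEA replicates 1 to 6, median differences of the nuclear subunits from the CON mean were -4.84%, -14.3%, -6.89%, -8.72%, -14.1% and -11.4%, and those of the mtDNA-encoded subunits -2.96%, -29.6%, -1.48%, -18.6%, 1.23% and -24.2%. All 6 medians were below 0 for the nuclear subunits and 5 of 6 for the mtDNA-encoded ones, with PEA replicate 2 lowest for both and replicate 5 the exception. CON replicates 2 and 5 were the lowest CON libraries for the mtDNA-encoded subunits, at -12.7% and -19.5% from the mean of the other CON libraries, and stood at -0.992% and -0.301% for the nuclear subunits.

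Levels were compared between genes as normalised counts per kilobase, and the order depended on the length used. Per kilobase of the Ensembl canonical transcript, a choice added after seeing the data, nuclear subunits ran from 163 (Ndufb2) through a median of 1429 to 6384 (Ndufb7), assembly factors from 90.3 (Ndufaf5) through 157 to 472 (Ndufaf2), and mtDNA-encoded subunits from 3046 (mt-Nd4l) through 16366 to 36674 (mt-Nd1). Per kilobase of all annotated exons joined, the highest and lowest were Ndufb10 (2624) and Ndufb2 (62.2) among nuclear subunits, and Ndufaf8 (281) and Ndufaf6 (16.5) among assembly factors. Among mtDNA-encoded subunits the order was mt-Nd1, mt-Nd2, mt-Nd4, mt-Nd6, mt-Nd5, mt-Nd3 and mt-Nd4l on either length. On both scales every assembly factor was below every mtDNA-encoded subunit.

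Of the genes at these extremes not yet described, Ndufb7, an accessory subunit of the distal membrane arm, had 3929, 4256 and 4352 normalised counts in CON and 3496, 3716 and 4120.1 in PEA (lowest, median, highest). The groups overlapped, and the log2 fold change was -0.15 (SE 0.05, edgeR adjusted p = 0.0531). Ndufb2, also of the distal arm, had 767 ± 90.2 in CON and 661 ± 60.7 in PEA. Ndufaf5, an assembly factor that hydroxylates Ndufs7, had 255 ± 36.3 and 237 ± 31.4 (edgeR adjusted p = 0.607), and Ndufaf8, a partner of Ndufaf5, had 252 ± 45.8 and 227 ± 26.2 (adjusted p = 0.525).

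The share of genes called lower varied with transcript length, and the nuclear subunits are mostly short. Their canonical transcripts had a median of 1166 bases against 3298 for all genes tested. Length classes were set after seeing the data. Among all 1087 tested genes with a canonical transcript under 1000 bases, 12.1% were called lower and the median log2 fold change was -0.12, and the 17 nuclear subunits of that length had 3 calls and a median of -0.13. From 1000 to 2000 bases, 7.38% of 2262 genes were called lower with a median of -0.04, and the 11 nuclear subunits had 4 calls and a median of -0.15. From 2000 to 4000 bases the values were 3.98% and 0.01 for all genes, and 0 of 4 and -0.12 for the subunits. For longer transcripts they were 2.68% and 0.03, and 2 of 4 (Ndufb9 and Ndufa10) and -0.19. Lengths are those annotated, and which transcripts these cells express was not examined.

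**Figure D4:**
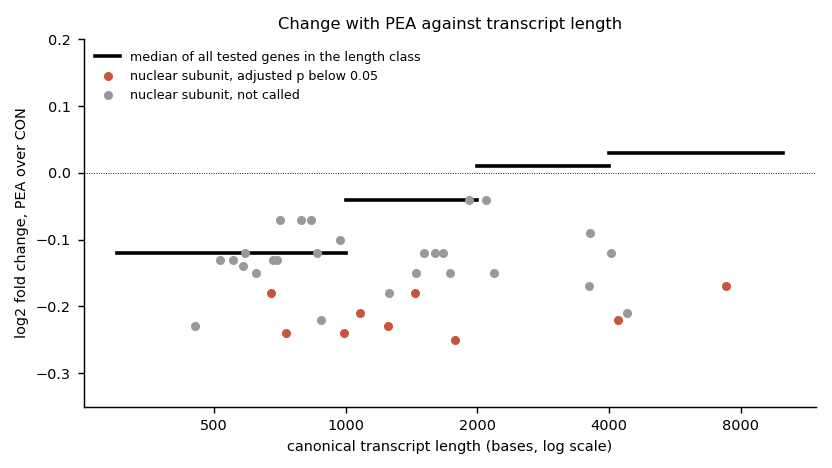
Log2 fold change of each nuclear subunit against the length of its canonical transcript (log axis), with red points for an adjusted p below 0.05 and black bars for the median of all tested genes in 4 length classes. The bars run from -0.12 below 1000 bases to 0.03 above 4000 bases, and all subunits over 1000 bases lie at or below their bar.

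When the within-library trends with transcript length and GC content were taken out, the median log2 fold change was -0.10 for nuclear subunits, -0.07 for assembly factors and -0.03 for mtDNA-encoded subunits. By edgeR, 5 of 36 nuclear subunits were then called lower (Ndufb9, Ndufv2, Ndufa11, Ndufa10 and Ndufs6), where 5.46% of all genes were. Ndufb9 stood at -0.24 (adjusted p = 0.00305) and Ndufv2 at -0.21 (adjusted p = 0.0098), whereas the adjusted p became 0.0785 for Ndufb10 and 0.0671 for Ndufa4. Ndufaf1 was called with an adjusted p of 0.0341. Of the nuclear subunits, 32 kept a negative sign to full precision, and the largest value above 0 was 0.04, for Ndufa7. The canonical transcript of Ndufb9 is annotated with 4197 bases, of which 1740 overlap Mtss1 on the opposite strand, so its correction rests on an uncertain length.

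Several nuclear subunits have processed copies elsewhere in the genome that were assigned counts in the table. For Ndufb4, a distal membrane arm subunit (chr16:37467242-37474815), the parent gene had 446 ± 60.7 normalised counts in CON and 419 ± 24.3 in PEA, a difference of -0.10 on the log2 scale (edgeR adjusted p = 0.49). Its copy Ndufb4c (chr15:73681356-73681745, annotated as a transcribed processed pseudogene) had more, with 1235, 1342 and 1533 in CON and 1076, 1133 and 1200 in PEA (lowest, median, highest). The copy's groups did not overlap, and its log2 fold change was -0.28 (adjusted p = 0.00621). The copy held 71.5% to 80.8% of the pair's counts in CON and 71.6% to 74.0% in PEA.

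Ndufa12, a matrix arm subunit (chr10:94034582-94057450), showed the same division. It had 777 ± 142 normalised counts in CON and 686 ± 54.5 in PEA (adjusted p = 0.299), while its copy Ndufa12-ps (chr5:130217236-130217637) had 1606 ± 174 and 1408 ± 56.5 (adjusted p = 0.0613). In CON replicate 4 the parent was lowest of all libraries at 505 and the copy highest at 1864. Processed copies derive from the parent's mRNA, so the assignment of reads between parent and copy is uncertain. Their sequences were not compared here.

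Counts of parent and copy were therefore also summed and the whole table refitted, an analysis added after seeing the data. The Ndufb4 pair had 1660, 1848 and 1941 normalised counts in CON and 1462, 1556 and 1652 in PEA, with no overlap and a log2 fold change of -0.23 (SE 0.05, edgeR adjusted p = 0.00611). The Ndufa12 pair had 2219, 2402 and 2567 in CON and 1954, 2123 and 2180 in PEA, again with no overlap (-0.18, SE 0.05, adjusted p = 0.019). The Ndufs6 pair passed narrowly (-0.17, adjusted p = 0.0454), the Ndufs5 pair did not (-0.17, adjusted p = 0.0899), and Ndufa11 was little altered (adjusted p = 0.0206). With copies summed, 12 of the 36 nuclear subunits were called lower, where 4.57% of all genes in that fit were.

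**Figure D5:**
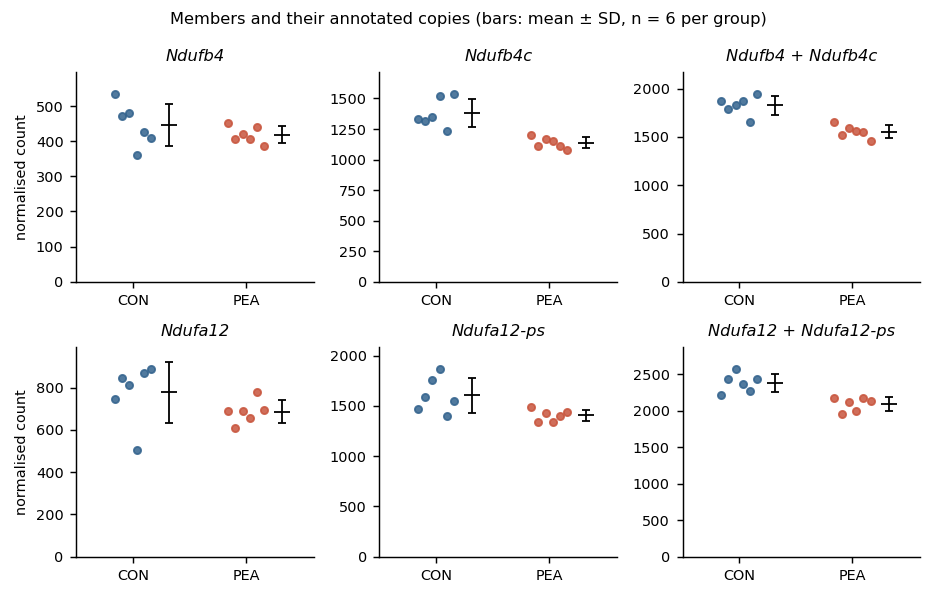
Normalised count (linear axis from 0) by library for Ndufb4 and Ndufa12, for their annotated copies and for the sums, with the group mean and SD as bars (n = 6 per group). The parents overlap between CON and PEA, and both sums do not, at 1660 to 1941 against 1462 to 1652 and 2219 to 2567 against 1954 to 2180.

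Promoters were examined because nuclear genes of the respiratory chain share known regulators, the factors NRF1, GABPA, YY1 and ERRα. RefSeq windows (GRCm38.p6) from 250 bases before to 50 bases after a transcription start were found for 39 of the 44 nuclear subunits and assembly factors, and were missing for 5, among them Ndufb9, Ndufs1, Ndufa2 and Ndufaf6. Both strands were searched for exact letters. The NRF1 motif GCATGCGC was in 3 of 32 nuclear subunits and 2 of 7 assembly factors, and in 6.02% of 9521 tested genes. The GABPA or ETS motif CCGGAAG was in 4 of 32 and 2 of 7, against 20.1% of all. The ERRα motif AAGGTCA was in 3 of 32 and 0 of 7, against 3.74%, and the PPAR motif, a direct repeat of AGGTCA with 1 base between, was in 0 of either class, against 0.0315%. Of the 8 called subunits with a window, 1 held the NRF1 motif and 2 the ETS motif.

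Of the genes with a window (Ndufa4 included), 4 of 9 called lower and 17 of 31 not called held any of the motifs searched. As examples only, stretches from 250 to 61 bases before the start are shown for Ndufb10 and Ndufa4, which were called lower and had none of these letters in their windows, and for Ndufa6, Ndufaf4 and Ndufb2, which held a motif and were not called. Capitals mark the NRF1 motif in Ndufa6, its overlapping matches on both strands in Ndufaf4, and the ERRα motif in Ndufb2. By edgeR, Ndufa6 stood at a log2 fold change of -0.12 (adjusted p = 0.109) and Ndufb2 at -0.21 (adjusted p = 0.104). The examples do not stand for a link between motif and call, which was not tested. Called genes such as Ndufb6 also held a motif, and some uncalled genes held none.
Ndufb10, chr17:24724484-24724673, minus strand: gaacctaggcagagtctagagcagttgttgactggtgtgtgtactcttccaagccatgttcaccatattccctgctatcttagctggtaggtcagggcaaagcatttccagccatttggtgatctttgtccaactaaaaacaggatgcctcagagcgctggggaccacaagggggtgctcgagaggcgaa
Ndufa4, chr6:11907511-11907700, minus strand: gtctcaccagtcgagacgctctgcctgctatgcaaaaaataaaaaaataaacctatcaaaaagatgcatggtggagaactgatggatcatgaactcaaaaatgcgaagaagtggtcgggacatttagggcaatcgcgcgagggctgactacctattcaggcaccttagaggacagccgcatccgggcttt
Ndufa6, chr15:82354352-82354541, minus strand: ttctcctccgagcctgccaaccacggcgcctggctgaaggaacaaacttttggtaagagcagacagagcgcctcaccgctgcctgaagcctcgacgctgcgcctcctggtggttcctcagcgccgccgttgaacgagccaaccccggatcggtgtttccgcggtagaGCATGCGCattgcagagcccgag
Ndufaf4, chr4:24897833-24898022, plus strand: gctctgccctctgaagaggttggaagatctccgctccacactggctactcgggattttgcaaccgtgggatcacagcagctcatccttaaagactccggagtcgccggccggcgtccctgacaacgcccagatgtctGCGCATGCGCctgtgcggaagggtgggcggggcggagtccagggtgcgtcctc
Ndufb2, chr6:39592315-39592504, plus strand: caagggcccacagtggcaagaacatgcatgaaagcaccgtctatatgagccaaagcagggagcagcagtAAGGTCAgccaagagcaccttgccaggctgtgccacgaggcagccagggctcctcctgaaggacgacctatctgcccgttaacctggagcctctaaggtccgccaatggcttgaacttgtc

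The YY1 motif AAGATGG was in 7 of 32 nuclear subunits (21.9%), compared with 8.5% of all tested genes. In all 7 the match lay on the gene's own strand 23 to 39 bases after the start, and its ATG coincided with an annotated start codon of the gene in GRCm39. In the single assembly factor with the motif, Ndufaf8, it did not. Of these 7 subunits Ndufc1 was called lower, and Ndufs6, Ndufa9, Ndufb8, Ndufs4, Ndufa3 and Ndufs7 were not. Sites of 3 of them are shown with 10 flanking bases, with the motif in capitals, to make the start codon within the motif visible.
Ndufc1: cctgcggaacAAGATGGcgccgtccgt
Ndufs6: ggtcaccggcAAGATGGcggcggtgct
Ndufs7: ggccgaggccAAGATGGcggcgctggc

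Beyond complex I, of 44 nuclear subunits of complexes II to V tested, 20 were called lower, 1 higher and 23 neither by edgeR (45.5% lower, against 4.74% of all genes tested), with a median log2 fold change of -0.17. With the length and GC offsets 15 were called lower and 1 higher, with a median of -0.13. Cox6b1, which links the monomers of the complex IV dimer, had 3988 ± 314 normalised counts in CON and 3243 ± 156 in PEA (-0.30, adjusted p = 0.00332), and Atp5mk, a small subunit of ATP synthase, 1046 ± 74.0 and 804 ± 95.0 (-0.38, adjusted p = 0.00463). Cox6a2, the muscle isoform of a complex IV subunit, was the single gene called higher (286 ± 83.1 to 412 ± 84.3, log2 fold change 0.53, adjusted p = 0.0481). Of 6 mitochondrial mRNAs for other complexes 0 were called by edgeR or DESeq2 (1 at an unadjusted p below 0.05), with mt-Atp8 at -0.49 (adjusted p = 0.0908) and mt-Co3 at -0.11 (adjusted p = 0.30).

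Among genes that supply or regulate the complex, few were called. With lists this small, the counts do not set them apart from all genes tested (4.74% lower, 6.31% higher by edgeR). Of 19 genes of mitochondrial DNA expression 0 were called by edgeR (2 at an unadjusted p below 0.05, 1 higher by DESeq2), the nearest being Pnpt1, a mitochondrial ribonuclease (0.24, adjusted p = 0.0629), and Slirp, which stabilises mitochondrial mRNAs (-0.14, adjusted p = 0.112). The mitochondrial transcription factor Tfam had 1072 ± 58.3 normalised counts in CON and 1070.2 ± 61.0 in PEA. Of 12 regulators of mitochondrial biogenesis tested 0 were called by edgeR (1 at an unadjusted p below 0.05, 1 lower by DESeq2), with Ppargc1b at -0.43 (adjusted p = 0.0616) and Pprc1 at 0.12 (adjusted p = 0.303). Among 14 genes of iron-sulfur cluster assembly, which supply the clusters of the matrix arm, Isca2 was lower (681 ± 51.1 to 585 ± 39.0, adjusted p = 0.0387) and its partner Isca1 did not pass (adjusted p = 0.0657). At an unadjusted p below 0.05 there were 4 such genes. DESeq2 called both lower (Isca1 adjusted p = 0.0469), and with the offsets Isca1 passed (0.0471) and Isca2 did not (0.185). Of 8 other enzymes that pass electrons to ubiquinone or act on NADPH 0 were called by edgeR or DESeq2 (2 at an unadjusted p below 0.05), with Prodh at -0.59 (adjusted p = 0.111) and Sqor at 0.15 (adjusted p = 0.118).

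Among the cell type markers, the fast troponin Tnni2 went from 8270.3 ± 779.6 to 5945 ± 485 normalised counts (log2 fold change -0.47, edgeR adjusted p = 0.000529) and the Z-disc protein Actn2 from 227 ± 64.3 to 107 ± 14.6 (-1.08, adjusted p = 0.00125). The mitotic genes Top2a and Ccna2 stood at 0.95 and 0.94 (adjusted p = 0.000937 and 0.00115). The myoblast cadherin Cdh15 was lower (-0.25, adjusted p = 0.0444), Spry1 did not pass (-0.21, adjusted p = 0.0508), and Notch3 had no overlap between groups but did not pass (0.27, adjusted p = 0.0519). Dcn, a matrix proteoglycan of fibroblasts, was higher (0.48, adjusted p = 0.0439), Lum stood at -0.77 (adjusted p = 0.0851), and the macrophage marker Cd68 at -0.06 (adjusted p = 0.875).

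Exons shared with other genes limit single values. Of the 52 genes, 29 have a canonical transcript that overlaps exons of another annotated gene, and whether reads were counted by strand is not given in the sources used here. Among the called genes, Ndufs3 shares 507 of 1440 bases with Kbtbd4, Ndufb6 267 of 674 with Smim27 and Ndufb5 216 of 1079 with Mrpl47, all on the opposite strand. Ndufa11 shares 158 of 990 with Vmac on the opposite strand, and Ndufb9 201 of 4197 with Gm49356 on the same strand. The canonical transcripts of Ndufb10, Ndufc1, Ndufa10 and Ndufa4 share none.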

How the data were processed

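RNA was measured by poly-A selected RNA sequencing of 12 C2C12 libraries, 6 per group, grouped by GEO's labels. The labels list 13 samples, because PEA replicate 2 has a top-up sequencing run that names the same entry of the tables and was counted once. In Partek Flow the authors removed low-quality reads, aligned reads with STAR 4.4.1d to mm39 and assigned them to Ensembl genes. The deposited estimated counts are not normalised, and 70.2% of those above 0 are not whole. The other deposited table holds a signal, the same counts divided by 1 size factor per library (called normalised counts here), from which levels, SDs and coefficients of variation were computed. Totals of 12354845 to 50397444 per library set the counting precision.

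Estimated counts were rounded and fitted in edgeR 4.0.16 (R 4.3.3; TMM, filterByExpr, quasi-likelihood test of PEA against CON) over 13142 genes, with Benjamini-Hochberg adjustment over all of them and a threshold of 0.05. Alternatives used DESeq2 1.42.0, limma 3.58.1 on log2(normalised count + 1 or 8), other filters and size factors, and thinning. Others used offsets for transcript length and GC content, a block by replicate number (the replicate block), and leaving out each library. Exon lengths and positions came from GENCODE vM39 (GRCm39; 16343 of 16382 genes matched), promoters from RefSeq (GRCm38.p6).

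The members and lists were chosen with earlier results of these data known. Full values are given for the 3 members with the smallest p per class, the highest and lowest per kilobase, all 7 mtDNA-encoded subunits, Ndufa4 and Ndufa4l2; any other member may be named, and of each other list the 2 genes with the smallest p. Further genes named were chosen after their values were seen. The values of 1 nuclear subunit, which enters the counts and medians, are not reported here.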

Additional observations from a re-analysis of the deposited data

Results flagged for a closer look

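In 138 groups of 6 libraries (a gene, a summed marker list, or a class's share of counts, mean deviation or ratio, in CON or in PEA), Dixon's ratio of the gap beside the extreme library to the whole range passed its 95% critical value in 5. Chance alone gives about 1 group in 20. Among the members, Ndufaf6 was high in PEA replicate 4 (136 normalised counts, next 105, ratio 0.694). Ndufa1 was low in CON replicate 6 (608, next 807, ratio 0.648). Ndufa12 was low in CON replicate 4 (505, next 746, ratio 0.632), the library in which its copy Ndufa12-ps was highest at 1864. Among the marker sums, unfused myoblast markers were low in PEA replicate 4 (7852, next 8846, ratio 0.674) and dividing cell markers were high in CON replicate 2 (10873, next 8561, ratio 0.781). The part of these libraries in the fold changes was not tested beyond leaving each out.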

How the results depend on the processing

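Of 36 nuclear subunits, 9 were called lower by edgeR (4.74% of all genes tested). The count, with the share of all genes called lower in the same fit, was 14 by DESeq2 (7.03%), 5 with length and GC offsets (5.46%), 3 with a replicate block and these offsets (4.86%), 2 at an adjusted p below 0.01 (0.936%), 12 with copies summed (4.57%, added after seeing the data), 7 with the replicate block alone (4.77%), 6 with no filter on low counts (3.3%) and 9 to 11 under the remaining settings (4.75% to 5.11%). Leaving out single libraries gave 3 to 13 (shares of all genes from 2.16% to 7.35%). The assembly factors had 0 calls, 1 with the offsets (Ndufaf1) and 0 to 1 with single libraries left out (1 without PEA replicate 3). The mtDNA-encoded subunits had 0 calls, and 0 to 1 with single libraries left out (mt-Nd1 without CON replicate 2). Median log2 fold changes were -0.17 to -0.10 for nuclear subunits under every setting run. The replicate block paired CON and PEA libraries of the same number, which the labels do not tie to a repeat of the experiment. It therefore does not account for the 3 repeats. In the main fit same-numbered libraries were not paired, with correlations of their deviations from -0.0829 to 0.0649.

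Signs turned for some genes. With the offsets, and with the block and offsets, Ndufaf6 stood at 0.04 and 0.03, Ndufaf2 at 0.10 in both, mt-Nd6 at 0.05 in both, Ndufa6 at 0.00 in both, Ndufa3 at 0.01 and 0.02, Ndufa7 at 0.04 in both and Ndufs8 at 0.03 in both. Ndufaf2 was 0.00 with at least 10 counts in every library and 0.02 after thinning. Without single libraries Ndufaf6 ran from -0.11 to 0.03, Ndufaf2 from -0.06 to 0.05 and mt-Nd5 from -0.04 to 0.07. Cd68 was 0.02 with the block and offsets, 0.06 after thinning and -0.19 to 0.04 without single libraries. Genes called in the whole table, higher and lower, were 829 and 623, against 987 and 928 by DESeq2, 492 and 286 without PEA replicate 6, and 1232 and 971 without CON replicate 2. The causes were not tested. The lowest estimated count of a member in any library was 67, for Ndufaf6, which limits the precision of its value.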
